A study of Mus musculus with 9 samples.

Results

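The genes that encode the T cell receptor (TCR) and the first proteins it acts through were followed across 3 conditions of CD4+ T cells. They were chosen by name as the constant genes of the αβ TCR (Trac, Trbc1 and Trbc2), the chains of the CD3 complex (Cd3d, Cd3e, Cd3g and Cd247), the coreceptor gene Cd4, and the kinase genes Lck and Zap70. These were 10 of the 55487 genes in the deposited table, and all 10 were present once. The choice was by gene name and set no threshold on a measured value.

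Splenic CD4+ T cells of wild-type C57BL/6 mice (Trail-r+/+, young females) were purified by negative selection, so that other cells were removed by Abs and the T cells were left untouched. In the first group (3 libraries) the cells were held in culture medium alone, and the labels do not give the time. In the second (3 libraries) they received Abs to CD3 at 3 µg/ml together with Abs to CD28 at 2 µg/ml for 24 h, and in the third (3 libraries) the same Abs with TRAIL (10 µg/ml), a ligand of the TNF family that binds the receptor TRAIL-R. The comparison of the last 2 groups asks how TRAIL changes the transcriptome of activated T cells. The labels do not say that the libraries of a group came from separate mice or cultures, so p-values measure the spread between these libraries, which may be technical. No TRAIL-R-deficient library was analysed here.

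The TCR binds a peptide held by an MHC molecule but has no signalling tail of its own, and the CD3 chains carry the tyrosine motifs that pass the signal on. CD4 binds MHC class II and brings the kinase Lck to the complex. Lck phosphorylates the CD3 motifs, ZAP70 docks on them and is activated in turn, and internalisation and loss of the receptor from the surface follow engagement.

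Abundance is given as TPM, a length-normalised unit with the same total in every library. It is therefore a share of the transcripts in a library, and a fall in share can accompany an unchanged amount per cell. In these bulk libraries fewer T cells and less RNA per T cell cannot be told apart. The read depth is unknown from TPM, so no counting error can be given.

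The 10 genes lie at 7 places in the mouse genome (GRCm38). Trbc1 (chr6:41538218-41539881) and Trbc2 (chr6:41546730-41548352) follow each other on the plus strand with 6848 bases between them, and each is joined by RNA splicing to a rearranged V-D-J segment to give a β chain. Cd3g (chr9:44969572-44980431, minus strand), Cd3d (chr9:44981786-44987339, plus strand) and Cd3e (chr9:44998740-45009627, minus strand) form a cluster of 40.1 kb. The starts of Cd3g and Cd3d are 1354 bases apart and point away from each other. The others are Trac (chr14:54220521-54224206, plus strand), Cd247 (chr1:165788681-165877277, plus strand), Zap70 (chr1:36761798-36782818, plus strand), Cd4 (chr6:124864692-124888221, minus strand) and Lck (chr4:129548344-129573641, minus strand).

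Reads cannot always be assigned to 1 of the β chain genes, and the sequences show where. Over 518 coding bases Trbc1 and Trbc2 were 95.6% identical, and the first 259 bases were the same in both. The first coding exon (375 bases) differed at 1 base. Within the coding bases, the only ones compared, the third coding exon holds most of the differing positions (15 of its 107 bases). It is shown for both genes 5′ to 3′ on the plus strand, with capitals at the bases that differ, from GENCODE M21 (GRCm38).
Trbc1 (chr6:41539229-41539335): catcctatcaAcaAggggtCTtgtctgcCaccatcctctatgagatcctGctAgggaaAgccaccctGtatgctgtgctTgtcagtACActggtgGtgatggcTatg
Trbc2 (chr6:41547772-41547878): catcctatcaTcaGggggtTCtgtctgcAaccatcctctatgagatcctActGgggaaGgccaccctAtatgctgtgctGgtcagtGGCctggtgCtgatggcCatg
The division of reads between these genes is therefore uncertain, while their sum is less so.

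The starts of the CD3 cluster genes are shown because these neighbours did not move alike. The 250 bases before each start in the RefSeq table are printed 5′ to 3′ on the gene's strand (RefSeq, GRCm38.p6), with capitals at GGAA, the core that ETS family factors such as ETS1 bind, or at its complement TTCC. Windows were found for 6 of the 10 genes. Those of Cd3g and Cd3d end at the gene as located above, whereas the RefSeq start of Cd3e differs from that location and the last 16 bases of its window lie inside the gene.
Cd3g (chr9:44980432-44980681, minus strand): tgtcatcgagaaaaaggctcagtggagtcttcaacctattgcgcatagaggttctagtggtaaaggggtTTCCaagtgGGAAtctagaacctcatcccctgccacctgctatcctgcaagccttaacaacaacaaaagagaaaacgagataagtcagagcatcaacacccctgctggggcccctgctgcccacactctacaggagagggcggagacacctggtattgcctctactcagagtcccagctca
Cd3d (chr9:44981536-44981785, plus strand): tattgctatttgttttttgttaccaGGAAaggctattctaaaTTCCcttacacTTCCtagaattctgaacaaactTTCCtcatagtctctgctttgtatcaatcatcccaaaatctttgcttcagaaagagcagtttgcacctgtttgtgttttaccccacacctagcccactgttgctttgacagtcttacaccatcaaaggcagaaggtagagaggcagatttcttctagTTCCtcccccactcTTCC
Cd3e (chr9:45009612-45009861, minus strand): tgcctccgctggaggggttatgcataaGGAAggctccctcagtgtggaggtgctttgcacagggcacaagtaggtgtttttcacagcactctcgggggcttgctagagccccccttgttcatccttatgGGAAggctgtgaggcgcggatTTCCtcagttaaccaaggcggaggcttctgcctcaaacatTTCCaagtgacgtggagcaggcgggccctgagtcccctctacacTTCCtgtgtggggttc
The Cd3g window held 2 matches, the Cd3d window 6 and the Cd3e window 5, where the median over 32817 windows was 3. A match is common, since 93.4% of those windows held at least 1. CANNTG, the letters of an E-box, which reads the same on both strands, occurred 3 times before Cd3g and once each before Cd3d and Cd3e (66.2% of all windows held it). Neither TGTGGT, a RUNX core (14% of windows), nor TATAAA (12.4%) was present in any of the 3 windows on either strand.

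Together the 10 genes made up 0.494% of all TPM in medium, 0.405% in activated cells and 0.494% in TRAIL-treated activated cells. Their sum was 4911 to 4960 TPM in medium, 3862 to 4328 TPM after the Abs and 4740 to 5084 TPM with TRAIL, so the activated libraries lay below both other groups without overlap. In each group Trbc2 had the highest mean level and Trac the next. The highest mean was 7-fold above the lowest in medium, 6.45-fold in activated cells and 7.93-fold with TRAIL. Of the 9 neighbours in that order, the ranges of 7 overlapped in medium, 5 in activated cells and 4 with TRAIL, so most ranks in medium are not resolved.

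**Figure D1:**
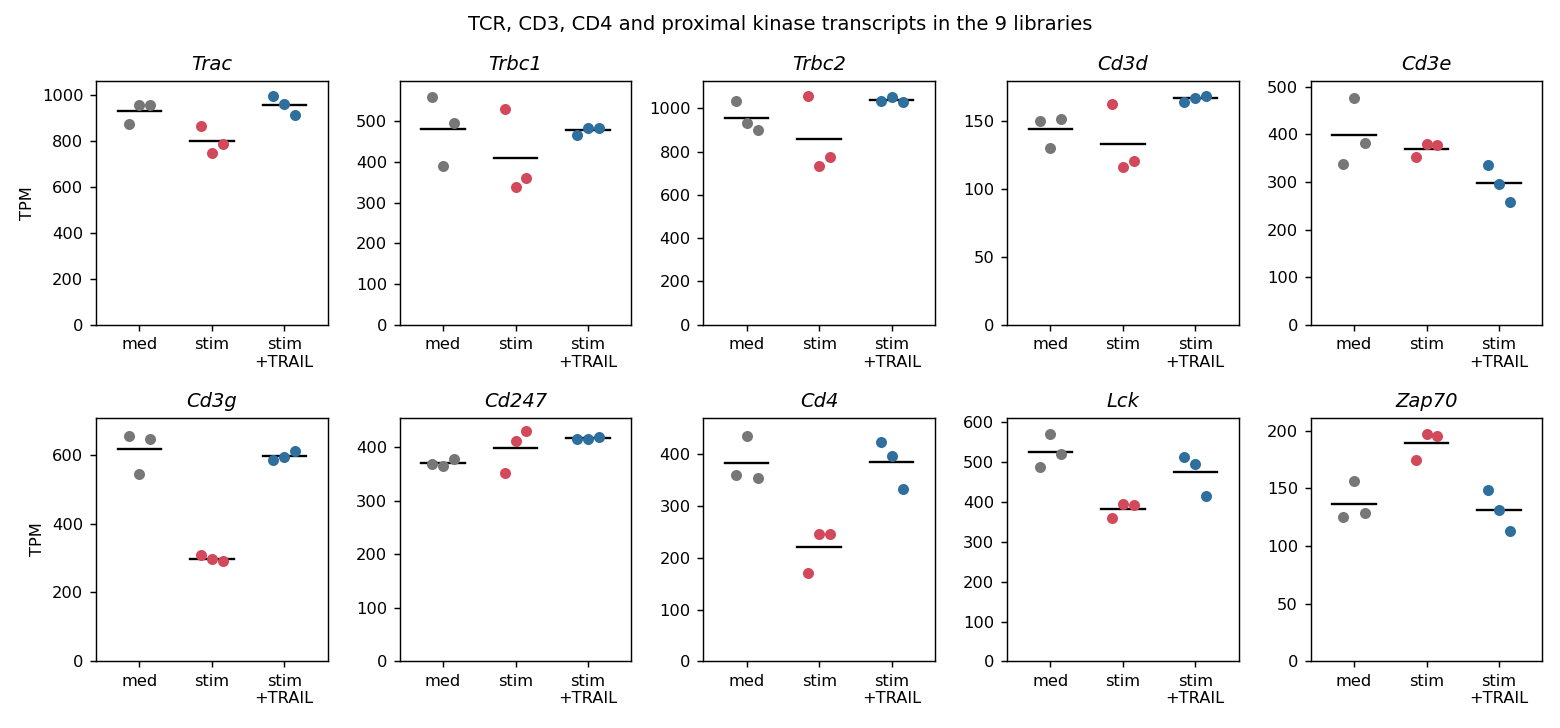
TPM of each of the 10 genes in each library (vertical axes, from 0) for medium (med), anti-CD3/CD28 (stim) and anti-CD3/CD28 with TRAIL. Points are libraries and lines are group means; for Cd3g the activated libraries lie at 290 to 308 TPM and all others at 545 or above.

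Against medium, 4 of the 10 genes passed an adjusted p of 0.05 in activated cells (1 higher, 3 lower), where 68.7% of all 15536 genes tested passed (28.8% higher, 40% lower). With TRAIL against activation alone, 6 passed (5 higher, 1 lower), beside 67.1% of all genes (33.5% higher, 33.5% lower). With TRAIL against medium, 1 passed (lower), beside 32.6% of all genes (8.03% higher, 24.6% lower), and none passed with a 2-fold change, beside 4.62%. The 3 libraries of 1 group lay wholly above or below those of the other for 5, 7 and 3 of the 10 genes in the 3 comparisons, beside 72.6%, 70.4% and 50.6% of all genes. The p-values are from limma with Benjamini-Hochberg adjustment over all genes tested. The median absolute log2 fold change of the 10 genes was 0.23, 0.32 and 0.09 in these comparisons, and that of all genes 0.66, 0.65 and 0.29. The comparisons share libraries, so opposite signs between them are not independent.

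The CD3 chains differed most from each other. Their summed level was 1528 ± 24 TPM (SD, n = 3) in medium, 1198 ± 21.5 TPM in activated cells and 1474 ± 21.4 TPM with TRAIL, and the groups did not overlap between activated cells and the others. Cd3g, the CD3γ chain, whose motif also steers receptor internalisation, accounted for most of this. It was at 655, 545 and 646 TPM in medium, 308, 297 and 290 TPM in activated cells, and 584, 592 and 610 TPM with TRAIL. The activated libraries lay far below the others, which overlapped. Cd3g fell on activation by 1.04 on the log2 scale (SE 0.093, limma adjusted p = 4.1e-06) and was higher with TRAIL than with Abs alone by 0.99 (SE 0.093, adjusted p = 5.9e-06). It was the single member to pass with a 2-fold change in the first comparison (31.9% of all genes did), and none did in the second, where 30.9% of all genes did. When libraries were scaled to a list of 29 receptor partner genes, both values kept their sign but were -0.41 (limma adjusted p = 0.0427) and 0.365 (adjusted p = 0.066), so the second call was lost. Its log2 difference between TRAIL and medium was -0.04 (95% interval -0.25 to 0.17).

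Cd3d encodes CD3δ. It was at 150, 130 and 151 TPM in medium, 162, 116 and 120 TPM in activated cells, and 164, 167 and 168 TPM with TRAIL. The first activated library lay just below the TRAIL group, and the other two were lower than every other library. The log2 difference on activation was -0.12 (95% interval -0.41 to 0.16), and that of TRAIL against Abs alone was 0.34 (SE 0.13, limma adjusted p = 0.0397). That call was lost, with adjusted p from 0.0513 to 0.143, without any one of medium 1, medium 3, activated 2, activated 3, TRAIL 1, TRAIL 2 or TRAIL 3, and the sign turned (-0.29) under the partner scaling. It was also lost, by adjusted p in limma, with no filter on low values (0.17), without a trend (0.0519) and with only the 6 libraries compared (0.0585).

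Cd3e encodes CD3ε, the chain that pairs with both CD3γ and CD3δ. It was at 338, 477 and 383 TPM in medium, 352, 379 and 377 TPM in activated cells, and 336, 296 and 259 TPM with TRAIL. The TRAIL libraries were the lowest 3 of the 9. Cd3e was lower with TRAIL than in medium by 0.42 on the log2 scale (log2 fold change -0.42, SE 0.14, limma adjusted p = 0.0412), and its difference from activated cells missed the threshold (-0.32, 95% interval -0.63 to -0.01, adjusted p = 0.0612). The first call was lost, with adjusted p from 0.0552 to 0.148, without medium 2 or 3, activated 2 or 3, or TRAIL 2 or 3. It was also lost under median-of-ratios scaling, which sets libraries equal at the typical gene (-0.23, adjusted p = 0.173), and, by adjusted p in limma, with only the 6 libraries compared (0.0577), with no filter on low values (0.204), without a trend (0.0524), with the replicate number as a block (0.0565) and after a correction for transcript length and GC content that was added after the data were seen (0.108). The second passed (adjusted p 0.0256 to 0.0451) without medium 1, medium 2 or TRAIL 1, with only the 6 libraries compared (adjusted p = 0.034) and under the partner scaling (-0.95, adjusted p = 6.3e-05, limma). Under the partner scaling Cd3e also passed as higher on activation (0.525, adjusted p = 0.00312), where its log2 difference without that scaling was -0.10 (limma adjusted p = 0.547).

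Cd247 encodes the ζ chain, which carries more tyrosine motifs than any other chain of the complex. Its levels were 369, 365 and 377 TPM in medium, 352, 411 and 429 TPM in activated cells, and 415, 414 and 419 TPM with TRAIL. It varied least of the 10 genes over the 9 libraries, and no comparison passed. The log2 differences were 0.10 on activation (95% interval -0.11 to 0.30), 0.07 for TRAIL against Abs alone (-0.13 to 0.28) and 0.17 for TRAIL against medium (-0.04 to 0.37). The scaling decided these calls: under the partner scaling Cd247 passed as higher on activation (0.72, limma adjusted p = 1.7e-04) and as lower with TRAIL than with Abs alone (-0.56, adjusted p = 8.3e-04), and under median-of-ratios scaling as higher with TRAIL than in medium (0.36, adjusted p = 0.0133).

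**Figure D2:**
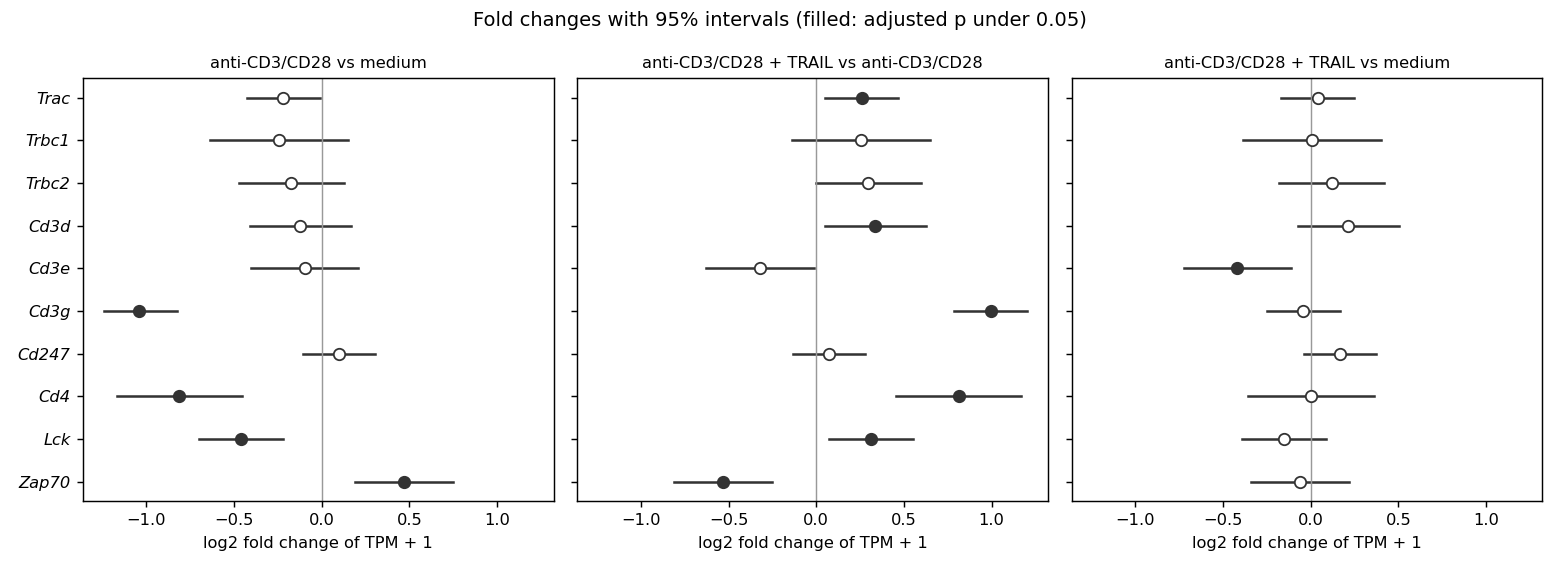
Log2 fold change of TPM + 1 (horizontal axis) with its 95% interval for each gene in the 3 comparisons, filled where the limma adjusted p is under 0.05. Intervals for Cd3g lie between -1.24 and -0.83 on activation and between 0.79 and 1.2 for TRAIL against Abs alone, while those of Cd247 include 0 in all 3.

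Trac encodes the constant part of the α chain. It was at 875, 957 and 958 TPM in medium, 864, 747 and 788 TPM in activated cells, and 998, 959 and 911 TPM with TRAIL. The activated libraries lay below all others. Trac was 1.2-fold higher with TRAIL than with Abs alone (log2 fold change 0.26, SE 0.093, limma adjusted p = 0.0302), and its fall on activation missed the threshold (-0.22, 95% interval -0.43 to -0.01, adjusted p = 0.058). The first call was lost without activated 2, activated 3, TRAIL 1 or TRAIL 2 (adjusted p 0.0801 to 0.121). It was also lost, by adjusted p in limma, with no filter on low values (0.0526) and with the replicate number as a block (0.0554). Its sign turned under the partner scaling (-0.37). The fall on activation passed without medium 1 (adjusted p = 0.0486) or activated 1 (0.0246) and under quantile normalization (-0.48, adjusted p = 0.00507). It also passed after the correction for transcript length and GC content (-0.32, limma adjusted p = 0.0189). Under the partner scaling Trac passed as higher on activation (0.405, limma adjusted p = 0.04).

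Trbc1 was at 559, 389 and 495 TPM in medium, 529, 339 and 360 TPM in activated cells, and 467, 484 and 484 TPM with TRAIL. Trbc2 was at 1036, 934 and 898 TPM in medium, 1057, 736 and 777 TPM in activated cells, and 1034, 1054 and 1028 TPM with TRAIL. In both genes the first activated library stood with the other groups and the remaining 2 lay lower. Neither passed in any comparison, and the Trbc2 log2 difference of TRAIL from Abs alone was 0.30 (95% interval -0.003 to 0.60, limma adjusted p = 0.074). Under quantile normalization Trbc2 passed as lower on activation (-0.50, limma adjusted p = 0.00323) and as higher with TRAIL than with Abs alone (0.395, adjusted p = 0.012). After the correction for transcript length and GC content Trbc1, Trbc2 and Cd3d passed as lower on activation (limma adjusted p 0.0402, 0.0427 and 0.0313), as did Trac. Trbc2 then also passed as higher with TRAIL than with Abs alone (0.252, limma adjusted p = 0.0486). The share of Trbc1 relative to Trbc2, which rests on the uncertain division of reads, ranged from 0.416 to 0.551 over the 9 libraries (exact permutation test over the 3 groups, p = 0.568).

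The first activated library decided several of these values. Without it, Trac, Trbc1, Trbc2 and Cd3d also passed as lower on activation, with log2 fold changes of -0.28, -0.44, -0.34 and -0.275 and limma adjusted p of 0.0246, 0.0165, 0.0107 and 0.0212, so that 8 of 10 genes passed (7 lower, 1 higher), beside 67.7% of all genes in the same fit. Without it Trbc1 and Trbc2 also passed as higher with TRAIL than with Abs alone (log2 fold changes 0.45 and 0.46, adjusted p 0.0149 and 0.00191). Its deviation from its group mean was 0.40 for Trbc1, 0.32 for Trbc2 and 0.30 for Cd3d, and -0.355 for Cd4, the member with the longest transcript (3108 bases). Over genes averaging 10 TPM or more, its median deviation was 0.10 in the 2395 with the shortest transcripts and -0.32 in the 2395 with the longest. Medium 2 and TRAIL 3 deviated the opposite way from each other over longer transcripts (0.11 and -0.15 in the 2395 longest). The same held in the bin of highest GC content (0.14 and -0.15). That length bin starts at 4500 bases, above every member. Trac, Cd3e, Cd4, Lck and Zap70 were above their group mean in medium 2 and below it in TRAIL 3. Trbc1, Trbc2, Cd3d, Cd3g and Cd247 were below it in medium 2, although Cd3g (2539 bases) is nearly as long as Cd3e (2550 bases). What produced these shifts was not tested.

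**Figure D3:**
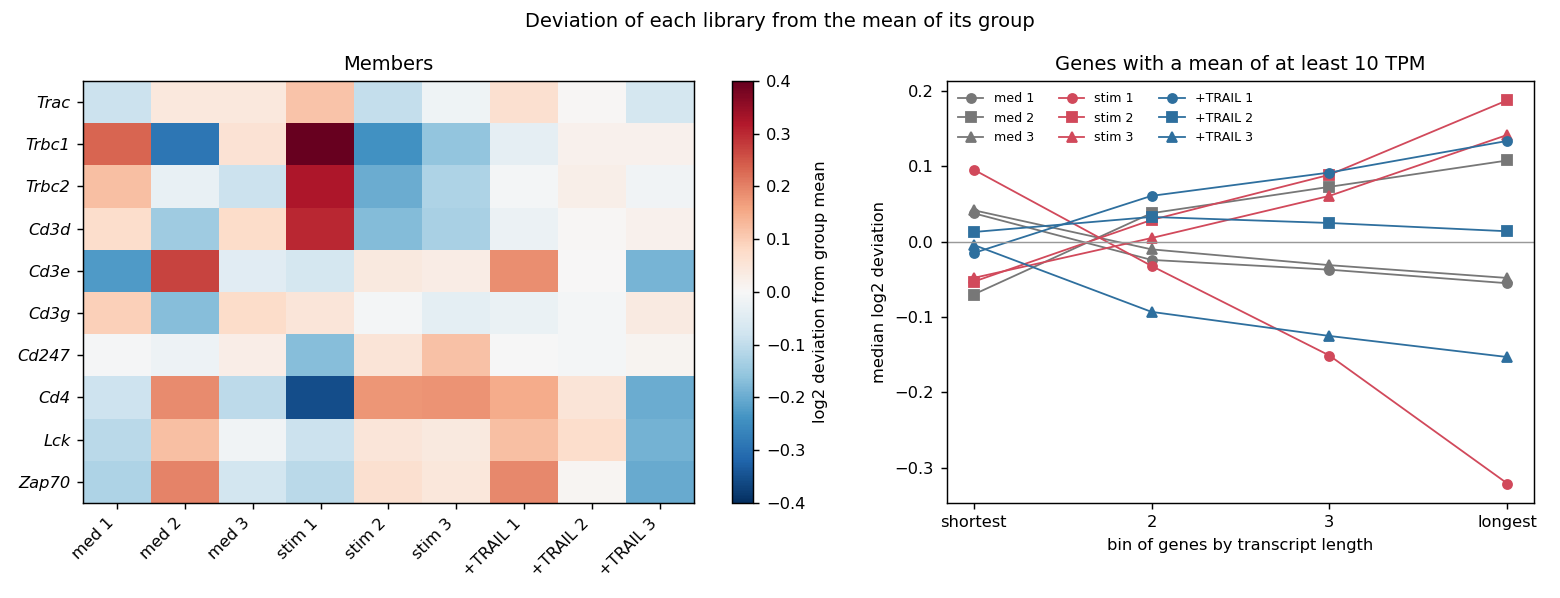
Left, log2 deviation of each gene (rows) from the mean of its group in each library (columns). Right, the median deviation of genes averaging 10 TPM or more, in 4 equal bins of transcript length, 1 line per library; the first activated library runs from 0.10 to -0.32.

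Cd4 was at 361, 435 and 355 TPM in medium, 170, 246 and 246 TPM in activated cells, and 423, 397 and 333 TPM with TRAIL. The activated libraries lay below all others, and medium and TRAIL overlapped. Cd4 fell on activation by 0.81 on the log2 scale (log2 fold change -0.81, SE 0.16, limma adjusted p = 0.00119) and was higher with TRAIL than with Abs alone by 0.81 (SE 0.16, adjusted p = 0.00119). Both calls were lost under the partner scaling (-0.19 with adjusted p = 0.0831, and 0.185 with adjusted p = 0.0891, limma). The difference between TRAIL and medium was 0.001 (95% interval -0.36 to 0.36).

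Lck phosphorylates the CD3 motifs. It was at 488, 572 and 521 TPM in medium, 359, 394 and 392 TPM in activated cells, and 514, 496 and 415 TPM with TRAIL. It fell on activation (log2 fold change -0.46, SE 0.11, limma adjusted p = 0.00329) and was higher with TRAIL than with Abs alone (0.31, SE 0.11, adjusted p = 0.0264). The second call was lost without activated 1, activated 3, TRAIL 1 or TRAIL 2 (adjusted p 0.0511 to 0.0995) and with no filter on low values (limma adjusted p = 0.088). Under the partner scaling both signs turned, to 0.16 (adjusted p = 0.163) and to -0.32, which passed as lower (limma adjusted p = 0.0141).

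Zap70 went the other way. It was at 125, 156 and 129 TPM in medium, 175, 197 and 195 TPM in activated cells, and 149, 131 and 113 TPM with TRAIL, and the activated libraries lay above all others. Zap70 rose on activation (log2 fold change 0.47, SE 0.13, limma adjusted p = 0.00709) and was lower with TRAIL than with Abs alone (-0.53, SE 0.13, adjusted p = 0.00349). Both calls were lost after the correction for transcript length and GC content (limma log2 fold changes 0.22 with adjusted p = 0.0907, and -0.23 with adjusted p = 0.0788). That correction also removes any length- or GC-linked difference between the groups themselves. Under the partner scaling both values were larger (1.09 and -1.16). Zap70 has the highest GC content of the 10 transcripts, 59.6%.

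Ratios of 2 genes within a library do not depend on the scaling of that library. Of 10 ratios, 7 differed between the 3 groups (exact permutation test over the 9 libraries, smallest possible p 0.00357, Benjamini-Hochberg adjusted over the 10). The count fell to 3 without activated 2 or activated 3, to 4 without medium 3, and to 0 with the replicate number as a block. Within blocks the test has few arrangements, so a single ratio could not pass by itself after the adjustment. With 3 libraries against 3, no pair of groups can reach a two-sided exact p under 0.1, so which groups differ is described by their ranges. Zap70 relative to Lck was 0.256, 0.273 and 0.248 in medium, 0.487, 0.5 and 0.497 in activated cells, and 0.29, 0.264 and 0.272 with TRAIL (exact p = 0.0107, adjusted 0.0214). The activated libraries lay apart and the others overlapped.

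Cd4 relative to Lck was 0.727 ± 0.0411 (SD, n = 3) in medium, 0.574 ± 0.0884 in activated cells and 0.808 ± 0.0138 with TRAIL, with no overlap between groups (exact permutation adjusted p = 0.0179). Cd3g relative to Cd3e was 1.59 ± 0.408 in medium, 0.81 ± 0.0581 in activated cells and 2.03 ± 0.309 with TRAIL (exact permutation adjusted p = 0.0214), and medium and TRAIL overlapped. Cd247 relative to Cd3e was highest with TRAIL, at 1.42 ± 0.19 against 0.948 ± 0.167 in medium and 1.07 ± 0.0688 in activated cells (exact permutation adjusted p = 0.0214). Cd3e relative to Trac was lowest with TRAIL, at 0.31 ± 0.0259 against 0.428 ± 0.0613 and 0.464 ± 0.0516 (exact permutation adjusted p = 0.0255).

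Cd3d relative to Cd3e did not pass (exact permutation adjusted p = 0.103), although all 3 TRAIL libraries (0.487 to 0.649) lay above the others (0.272 to 0.461). Trac relative to the sum of Trbc1 and Trbc2 ranged from 0.545 to 0.723, and its groups overlapped (exact permutation adjusted p = 0.929). Cd3g relative to its divergent neighbour Cd3d, a ratio chosen after its values were seen and not tested, was 4.2 to 4.36 in medium, 1.9 to 2.55 in activated cells and 3.55 to 3.63 with TRAIL.

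**Figure D4:**
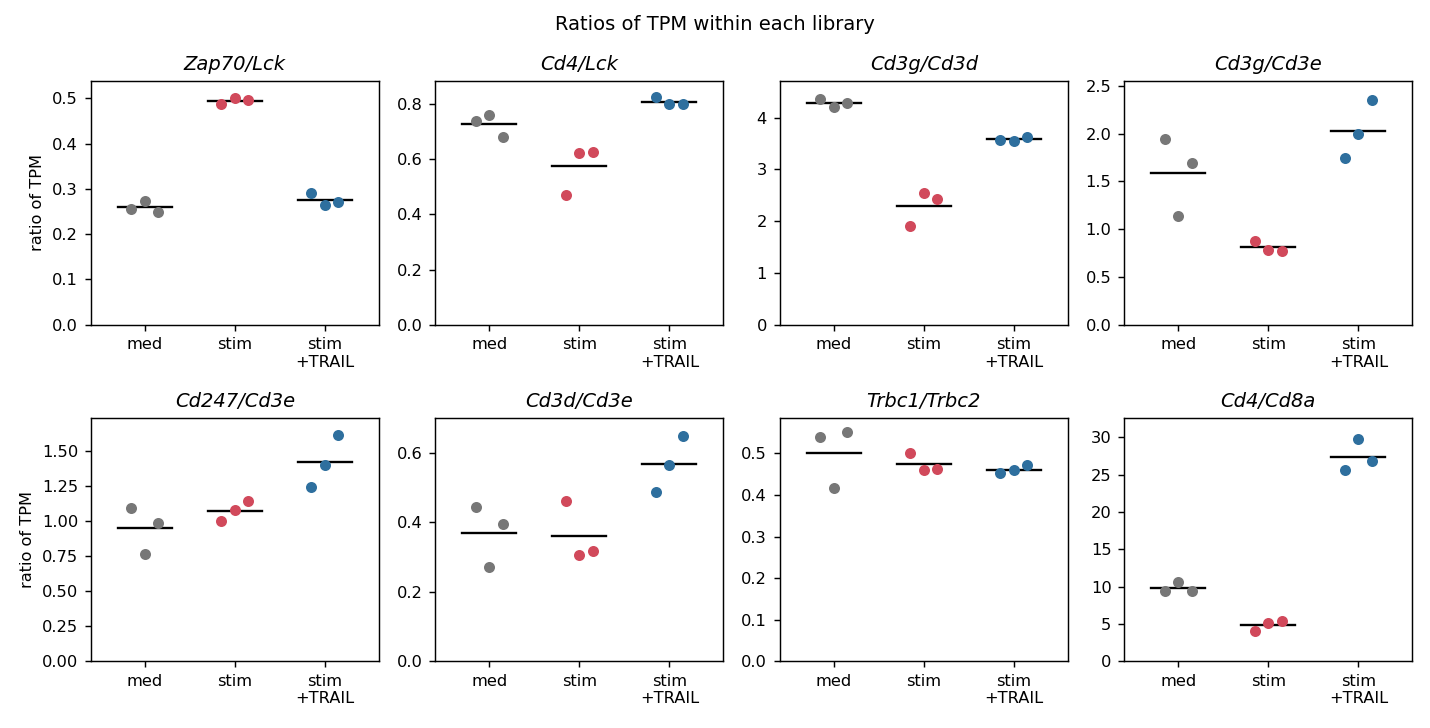
Ratios of TPM of 2 genes in each library (vertical axes, from 0), with points for libraries and lines for group means. Zap70/Lck lies at 0.487 to 0.5 in activated libraries and at 0.248 to 0.29 in the others, and Cd4/Cd8a is 25.6 to 29.8 with TRAIL.

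Signs of other cells moved with the groups. Summed TPM of 10 B cell markers was 6646 to 7343 in medium, 759 to 829 in activated cells and 3254 to 3768 with TRAIL, and all 10 markers passed as lower on activation and as higher with TRAIL than with Abs alone. The 12 myeloid markers summed to 2150 to 2413, 92.3 to 116 and 1564 to 1812 TPM, and the 5 erythroid markers to 2061 to 2502, 24.8 to 39.6 and 607 to 656 TPM. All of both lists passed in the same directions. In activated cells 1 myeloid marker (Adgre1) and 1 erythroid marker (Alas2) were under 1 TPM in every library.

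NK markers (6 genes) summed to 289 to 384, 240 to 313 and 110 to 120 TPM. That sum was led by Gzma, at 149, 230 and 51.3 TPM on average, which rose on activation and was lower with TRAIL than with Abs alone, while the other 5 NK markers fell on activation and 4 of them were higher with TRAIL than with Abs alone (Ncr1 at 40.1, 2.64 and 8.44 TPM). Of all genes, 68.7% and 67.1% passed in these comparisons. The 4 constant genes of the γδ receptor summed to 44.8 to 53.6, 21.5 to 23.4 and 33.2 to 35.1 TPM. NK cells also use Cd247, Lck and Zap70. The CD8 coreceptor genes, Cd8a and Cd8b1, summed to 110 to 118, 94.2 to 105 and 46.9 to 49.4 TPM, and Cd4 relative to Cd8a was 9.82 ± 0.782 in medium, 4.86 ± 0.698 in activated cells and 27.4 ± 2.18 with TRAIL (exact permutation adjusted p = 0.0179). Other T cell markers (8 genes) summed to 2757 to 3460, 2534 to 3119 and 2869 to 3529 TPM, which overlap. Of the 8, 6 passed on activation (3 higher, 3 lower) and 6 for TRAIL against Abs alone (4 higher, 2 lower), shares near those of all genes.

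When the other-cell genes were left out and each library was rescaled, 5 members passed on activation, Trac being added (log2 fold change -0.27, limma adjusted p = 0.0246), and 6 passed for TRAIL against Abs alone, beside 68.4% and 66.7% of all genes in that fit. The genes left out were 3.82% to 4.05% of TPM in medium, 0.328% to 0.355% in activated cells and 2.35% to 2.57% with TRAIL. The part of residual other cells in the remaining differences was not tested.

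**Figure D5:**
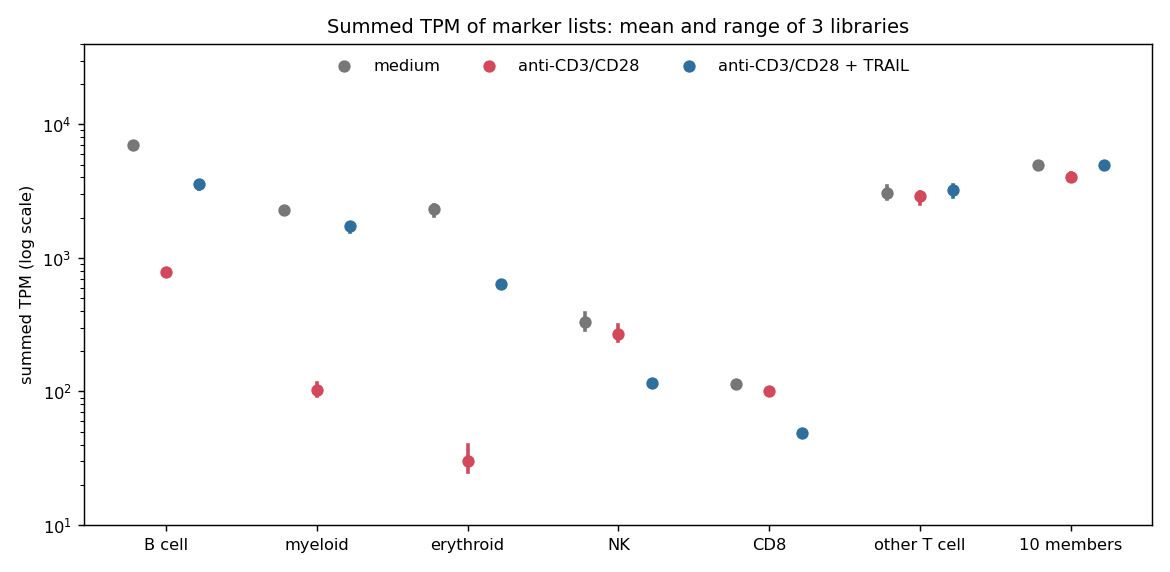
Summed TPM of marker lists and of the 10 genes (logarithmic vertical axis), with the mean (point) and range (line) of the 3 libraries of each group. B cell markers run from 786 to 7011 TPM between group means, whereas the 10 genes stay between 4055 and 4942 TPM.

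Of 29 genes for partners of the receptor (adaptors, further kinases, phosphatases and coreceptors), 23 passed on activation (7 higher, 16 lower), 24 for TRAIL against Abs alone (19 higher, 5 lower) and 6 for TRAIL against medium (2 higher, 4 lower), beside the 68.7%, 67.1% and 32.6% of all genes. Scaled to this list itself, 14 were higher and 10 lower on activation, and 9 higher and 10 lower for TRAIL against Abs alone. That scaling centres the list by construction, so this split cannot show the direction of the list. On activation 10 were higher and 16 lower under median-of-ratios scaling, and 5 higher and 17 lower under quantile normalization. The median absolute log2 fold change of the list was 0.71, 0.57 and 0.18. Trat1, a transmembrane adaptor that binds the receptor complex, differed most: its mean fell from 66.7 to 3 TPM on activation (log2 fold change -4.08, SE 0.12, limma adjusted p = 1.7e-09) and was 58.7 TPM with TRAIL. Tespa1, a regulator of proximal signalling, was at 163, 21.5 and 145 TPM, and Pag1, an adaptor that recruits the inhibitory kinase CSK, at 54.6, 13.9 and 50.8 TPM in the 3 groups. Both were higher with TRAIL than with Abs alone (log2 fold changes 2.70 and 1.83, adjusted p 1.6e-08 and 1.9e-05).

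The most abundant partners were Ptprc (CD45, the phosphatase that keeps LCK active), at 1296, 747 and 1148 TPM, Cd2, an adhesion receptor, at 392, 839 and 446 TPM, and Lat, the adaptor ZAP70 phosphorylates, at 555, 411 and 568 TPM. Cd2 rose on activation (log2 fold change 1.09, limma adjusted p = 8.2e-07), while Ptprc and Lat fell (-0.82 and -0.43, adjusted p 0.00131 and 8.9e-04).

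Among 7 relatives of LCK and ZAP70 (Fyn is also one of the partners above), 5 passed on activation (1 higher, 4 lower) and all 7 for TRAIL against Abs alone (5 higher, 2 lower), beside 68.7% and 67.1% of all genes. Under the partner scaling 3 were higher and 4 lower on activation, and 4 higher and 2 lower for TRAIL against Abs alone. Lyn, Blk, Fgr and Syk, kinases used by B and myeloid cells, were all lower on activation (log2 fold changes from -2.42 to -3.38). The B cell and myeloid marker sums given above moved the same way, but Blk is itself one of those B cell markers. Fyn, the other Src kinase of T cells, was at 177 ± 23.6, 147 ± 22.8 and 218 ± 42.3 TPM (SD, n = 3), and was higher with TRAIL than with Abs alone (log2 fold change 0.55, SE 0.17, limma adjusted p = 0.0149). Lck relative to Fyn was 3 in medium, 2.62 in activated cells and 2.21 with TRAIL (exact permutation adjusted p = 0.0255). Activated libraries (2.43 to 2.97) overlapped both medium (2.81 to 3.13) and TRAIL (2.05 to 2.44), and only medium and TRAIL lay apart. Src and Yes1 were at 2.53 TPM or less on average in every group.

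Of 14 transcription factors known to act on these genes or on T cell identity, 13 passed on activation (4 higher, 9 lower) and 13 for TRAIL against Abs alone (8 higher, 5 lower), beside 68.7% and 67.1% of all genes. Under the partner scaling 5 were higher and 4 lower on activation, and 5 higher and 6 lower for TRAIL against Abs alone. Gfi1, a repressor, rose from 14.6 to 130 TPM (log2 fold change 3.07, limma adjusted p = 1.1e-09) and was 38 TPM with TRAIL. Elf1, an ETS factor, was at 234, 102 and 298 TPM, and Satb1, a chromatin organiser, at 265, 727 and 267 TPM. Besides Satb1, the most abundant were Tcf7 (1085, 511 and 1063 TPM) and Ets1 (783, 485 and 692 TPM), both lower on activation (log2 fold changes -1.10 and -0.71, adjusted p 5.2e-04 and 0.0027).

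For each member the gene with the closest course was sought among 9578 genes averaging 10 TPM or more, by the root mean square difference of centred log2(TPM + 1) over the 9 libraries. Cd4 was closest to Mbp (0.0373), Lck to Galnt12 (0.0442), Cd3e to Arl8a (0.0531), Zap70 to U2af2 (0.056), Cd247 to Nmt2 (0.0595) and Cd3g to Hyls1 (0.0701). Trac was closest to a gene listed as CAAA01118383.1 (0.0616). Trbc1, Trbc2 and Cd3d shared Nt5c3 (0.0746, 0.066 and 0.0618), a gene whose mean was 40.9, 36.4 and 43.6 TPM in the 3 groups.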

How the data were processed

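RNA-seq of splenic CD4+ T cells from wild-type C57BL/6 mice was compared in 3 groups of 3 libraries, grouped by their labels. The submitters' processing notes name Trimmomatic 0.36, HISAT2 2.1.0, SAMtools 1.2, StringTie 2.1.2 and DESeq2. They list GRCh38, whereas the study's methods give GRCm38, and the table's identifiers and loci are mouse (99.4% of 55141 genes shared with GENCODE M21 had the same locus). The authors deposited 1 table of TPM values, which sum to 1000000 per library. How reads were shared between near-identical, overlapping or antisense genes, and whether strand was used, is not given in the sources used here. TPM holds no depth, so no count test was used.

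A single limma fit (version 3.58.1, R 4.3.3, with a variance trend) on log2(TPM + 1) held the 9 libraries and the 15536 genes that reached 1 TPM in 3 or more of them. It had no replicate term, and used Benjamini-Hochberg adjustment over all genes tested. The pseudocount understates changes of low genes. Calls needed an adjusted p under 0.05. The fit was tested on simulated data. Ratios were tested by exact permutation of the libraries. All 10 members were named, the partner and transcription factor lists gave the 3 genes with the largest difference between TRAIL and Abs alone and the 3 most abundant, and the 7 related kinases were listed in full. Some items are not reported here. The members and lists were chosen with earlier results of these data known. Sequences came from RefSeq (GRCm38.p6) and GENCODE M21. Other steps used Python 3.11.15 (pandas 2.3.3, numpy 2.4.6, matplotlib 3.10.9). Alternatives were other pseudocounts, filters and scalings, limma without a trend, a block, only the 6 libraries compared, each library left out, and, after seeing the data, a length and GC correction.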

Additional observations from a re-analysis of the deposited data

How the results depend on the processing

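Of 630 alternative values for the 10 genes (21 settings in 3 comparisons), 529 kept their direction and their side of the threshold, 38 lost a call, 23 gained one and 40 changed sign. In 33 of the 40 neither value passed, and 25 of the 40 were in TRAIL against medium. Part of the 630 values came from settings that leave the fold change as it is by construction. These were the other filters on low values, the fit without a trend, the replicate block and the fit of only the libraries compared. Leaving out a library of the group outside a comparison was another. Such settings could change a call but not a sign, so the 529 overstate how far directions were tested. The 7 sign changes that involved a call all came from scaling to the 29 partner genes, most of which had themselves changed, and which shifted the all-gene median (log2) from -0.15 to 0.40 on activation and from 0.01 to -0.54 for TRAIL against Abs alone. Under partner scaling the activation values became 0.405 for Trac, 0.378 for Trbc1, 0.448 for Trbc2, 0.496 for Cd3d, 0.525 for Cd3e and 0.161 for Lck. Those for TRAIL against Abs alone became -0.371 for Trac, -0.375 for Trbc1, -0.333 for Trbc2, -0.289 for Cd3d, -0.557 for Cd247 and -0.319 for Lck, and that of Cd4 against medium became -0.006. Under partner scaling 4 members passed as higher and 1 as lower on activation, and 0 as higher and 4 as lower for TRAIL against Abs alone, in place of 1 and 3, and 5 and 1, beside 74.1% and 76.3% of all genes passing under that scaling. Quantile normalization shifted the all-gene median to 0.02 on activation and turned Cd247 there (-0.041). Against medium it turned the TRAIL values of Trac (-0.18), Trbc1 (-0.036), Trbc2 (-0.107), Cd4 (-0.021) and Zap70 (0.021). Median-of-ratios scaling shifted the all-gene median from -0.18 to -0.02 for TRAIL against medium and turned Cd3g (0.147), Lck (0.038) and Zap70 (0.126). In that comparison the removal of other-cell genes turned Trbc1 (-0.013) and Cd4 (-0.02), and the length and GC correction turned Trac (-0.057), Trbc1 (-0.117), Trbc2 (-0.008) and Cd3g (0.066). With single libraries left out, sign changes occurred within -0.21 to 0.038 for Cd3e on activation and -0.013 to 0.129 for Cd247 under TRAIL against Abs alone. For TRAIL against medium they occurred within -0.003 to 0.075 for Trac, -0.136 to 0.125 for Trbc1, -0.128 to 0.005 for Cd3g, -0.073 to 0.101 for Cd4 and -0.159 to 0.038 for Zap70.

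On activation 4 members passed, and from 4 to 8 with single libraries left out (8 without activated 1) and 7 (all lower) after the length and GC correction added after seeing the data, beside 63.6% to 68.9% and 72.1% of all genes. With a 2-fold change, 1 passed (Cd3g, lower), 0 under median-of-ratios scaling, 2 under quantile normalization, 1 under partner scaling (Zap70, higher, 1.09) and 0 to 1 with libraries left out (0 without medium 1 or medium 3). For TRAIL against Abs alone 6 passed, 3 with no filter (17.9% of all genes) and 3 to 7 with libraries left out (3 without activated 3 or TRAIL 2), where 62.3% to 67.6% of all genes passed. With a 2-fold change, 0 passed, and 1 as higher under median-of-ratios scaling, quantile normalization, the removal of other-cell genes and the length and GC correction, 1 as lower under partner scaling (Zap70, -1.16), and 0 to 1 with libraries left out (1, higher, without activated 1 or TRAIL 1). For TRAIL against medium 1 passed, and 0 with no filter, without a trend, with only the 6 libraries compared, with the length and GC correction, and 0 to 1 with libraries left out, beside 5.86%, 32.2%, 34.8%, 36.9% and 21.5% to 40% of all genes. Median-of-ratios scaling gave 1 higher member there, Cd247 (0.36), in place of Cd3e.

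Of the ratios 7 passed, and 3 to 6 with libraries left out (3 without activated 2 or activated 3, 4 without medium 3). Same-numbered libraries did not deviate together (r from -0.306 to 0.295 over 9 pairs, 3 of them over 0.1), so the numbers were not taken to pair them. With the replicate number as a block, 4, 5 and 0 members (67.5%, 66.3% and 29.2% of all genes) and 0 ratios passed, the ratio test having few arrangements within blocks. Depth is unknown, so what it limits was not assessed.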
